A study of Mus musculus with 12 samples.

Results

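The genes described here are 10 mouse genes of fatty acid and triglyceride synthesis: Acly, Acaca, Acacb, Fasn, Elovl6, Scd1, Me1, Thrsp, Gpam and Dgat2. They were chosen by name as the 25 probe sets that carry 1 of these symbols alone, from arrays that measured 18193 genes. No measured value entered the rule, but the 10 genes were picked with earlier results of these data known. A probe set is a group of short probes against 1 stretch of a transcript. The number per gene ran from 1 for Fasn to 6 for Acly, and the brightest probe set over the 12 arrays stood for its gene.

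Total RNA of liver and quadriceps muscle was hybridised to Affymetrix arrays, 3 for each of 4 groups: control liver, mutant liver, control muscle and mutant muscle. All mice were of the C57BL/6 strain, and the mutants carried a mutation of PGC-1beta that the series title calls hypomorphic, which means reduced rather than absent function. PGC-1beta, encoded by Ppargc1b, is a transcriptional coactivator of mitochondrial genes and, through the SREBP factors, of lipid synthesis genes. The labels name no tissue-specific driver of the mutation, and they are silent on age, sex and how the controls were related to the mutants. Nor do they state that each of the 3 samples of a group came from its own mouse. The p-values therefore reflect sample-to-sample spread that could be technical. In whole tissue, fewer cells of a type and less RNA per cell cannot be told apart.

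Ppargc1b read 506, 246 and 561 in the liver controls and 397, 526 and 192 in the liver mutants, and 317, 262 and 332 against 440, 267 and 282 in muscle. The groups overlapped in both tissues. Its probes cannot be placed with respect to the mutated part of the gene from the labels, so this signal does not check the genotypes. The tissue labels were borne out by marker genes: the summed intensity of 7 hepatocyte markers ran from 74337 to 83645 in liver against 246 to 681 in muscle, and that of 8 skeletal muscle markers from 94.2 to 145.5 in liver against 76568 to 80631 in muscle. The signal of control probe sets at the 3′ end over that at the 5′ end, a ratio which rises as RNA is degraded or copied short, was 1.90 in liver mutant 1 and 1.87 in liver mutant 3 (mean log2 ratio), against 0.90 in liver mutant 2, 0.50 to 0.97 in the liver controls and 0.33 to 0.56 in all 6 muscle arrays. Liver mutants 1 and 3 thus stood apart, and the results below are given with this in view.

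Fatty acids are built in the cytosol from citrate that leaves the mitochondria. ATP citrate lyase (Acly) cleaves citrate to acetyl-CoA, acetyl-CoA carboxylase (Acaca, Acacb) makes malonyl-CoA from it, and fatty acid synthase (Fasn) joins malonyl units into palmitate with NADPH that malic enzyme (Me1) helps to supply. Elovl6 lengthens palmitate, Scd1 puts in the first double bond, Gpam attaches the first acyl chain to glycerol phosphate, and Dgat2 attaches the last one to complete a triglyceride. Thrsp, or Spot 14, is not an enzyme but a small protein that promotes lipogenesis and responds to thyroid hormone and carbohydrate. In liver the pathway answers to insulin and glucose through SREBP-1c and ChREBP, whereas in muscle malonyl-CoA made by Acacb, at the mitochondrial surface, mainly restrains fatty acid oxidation.

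RefSeq promoters, taken as the 250 bases before a transcript start in the mouse build GRCm38.p6, were found for 8 of the 10 genes, with 10 promoters in all. Scd1 and Dgat2 had no entry. Gpam and Me1 had a further entry each, and for Gpam only the entry with motif matches is shown. Shown 5′ to 3′ in the direction of transcription are those of Fasn, Acly and Gpam, whose liver signals ran low on the same arrays, of Acacb, which stood higher in muscle, and of Thrsp, which did not run low in mutant liver. Capitals mark letters of the motifs searched on both strands: the CCAAT box with its letters CCAAT or, where it lies on the other strand, the reverse complement ATTGG, the E-box with CACGTG, the sterol regulatory element with TCACNCCA, and the TATA box with TATAAA. Lower case letters matched none of them.

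Fasn, chr11:120824548-120824797, minus strand: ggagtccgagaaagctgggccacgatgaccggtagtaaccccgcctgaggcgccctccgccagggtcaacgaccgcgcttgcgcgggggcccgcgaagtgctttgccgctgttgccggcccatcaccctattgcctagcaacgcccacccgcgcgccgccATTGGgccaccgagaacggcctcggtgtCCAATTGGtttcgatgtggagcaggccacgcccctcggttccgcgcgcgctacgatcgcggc
Acly, chr11:100528001-100528250, minus strand: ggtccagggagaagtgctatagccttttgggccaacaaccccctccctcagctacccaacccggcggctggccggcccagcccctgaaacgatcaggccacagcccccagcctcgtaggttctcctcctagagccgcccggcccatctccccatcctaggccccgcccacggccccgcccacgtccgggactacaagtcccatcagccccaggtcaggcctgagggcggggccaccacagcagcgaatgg
Gpam, chr19:55127239-55127488, minus strand: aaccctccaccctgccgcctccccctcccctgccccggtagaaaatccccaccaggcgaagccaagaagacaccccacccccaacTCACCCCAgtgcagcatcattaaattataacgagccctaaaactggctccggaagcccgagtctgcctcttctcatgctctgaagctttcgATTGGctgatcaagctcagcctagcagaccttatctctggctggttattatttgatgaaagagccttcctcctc
Acacb, chr5:114165268-114165517, plus strand: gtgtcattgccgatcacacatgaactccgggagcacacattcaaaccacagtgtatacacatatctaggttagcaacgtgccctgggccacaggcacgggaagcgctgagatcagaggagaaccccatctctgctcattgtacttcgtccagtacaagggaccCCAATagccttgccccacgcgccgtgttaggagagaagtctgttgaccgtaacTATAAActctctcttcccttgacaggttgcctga
Thrsp, chr7:97417551-97417800, minus strand: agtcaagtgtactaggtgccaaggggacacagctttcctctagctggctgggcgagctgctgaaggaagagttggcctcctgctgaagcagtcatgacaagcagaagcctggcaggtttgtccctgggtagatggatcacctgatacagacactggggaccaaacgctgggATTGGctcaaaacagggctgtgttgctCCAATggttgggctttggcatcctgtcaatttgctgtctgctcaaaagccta

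The Fasn window held CCAAT 3 times, beginning 90, 62 and 59 bases before the start, of which the last pair overlap on opposite strands. Thrsp held it 79 and 52 bases before the start, the Gpam window shown 74 bases before, and Acacb 87 bases before, with a TATA box 34 bases before. The Gpam window shown was the only one of the 10 with the sterol regulatory element, 165 bases before the start. The other Gpam window, at chr19:55099478-55099727, matched no motif, nor did that of Acly. A CCAAT box was in 5 of the 10 promoters (the fifth being 1 of the Me1 entries) and in 33.8% of 32851 promoters of the same length. The E-box was in 0 of the 10 and in 6.02% of all promoters, the sterol element in 1 of the 10 and 3.67%, and the TATA box in 1 of the 10 and 12.4%. These matches describe letters only. Several of the windows lie within the gene as annotated and so precede internal starts. That of Acacb is among them, in a gene that begins at 114146321, and so is that of Acaca.

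In control animals the pathway was laid out differently in the 2 tissues. Of the 10 genes, 7 were higher in liver (Dgat2, Thrsp, Acly, Elovl6, Scd1, Fasn and Acaca) and 3 were higher in muscle (Acacb, Me1 and Gpam, the last of which turned with the scaling), all past an adjusted p of 0.05 in limma. Over all genes tested 54.7% passed, 26.3% higher in liver and 28.4% higher in muscle, so a call alone says little here and the sizes carry the description. The plot of every array shows these levels on the scale as deposited.

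**Figure D1:**
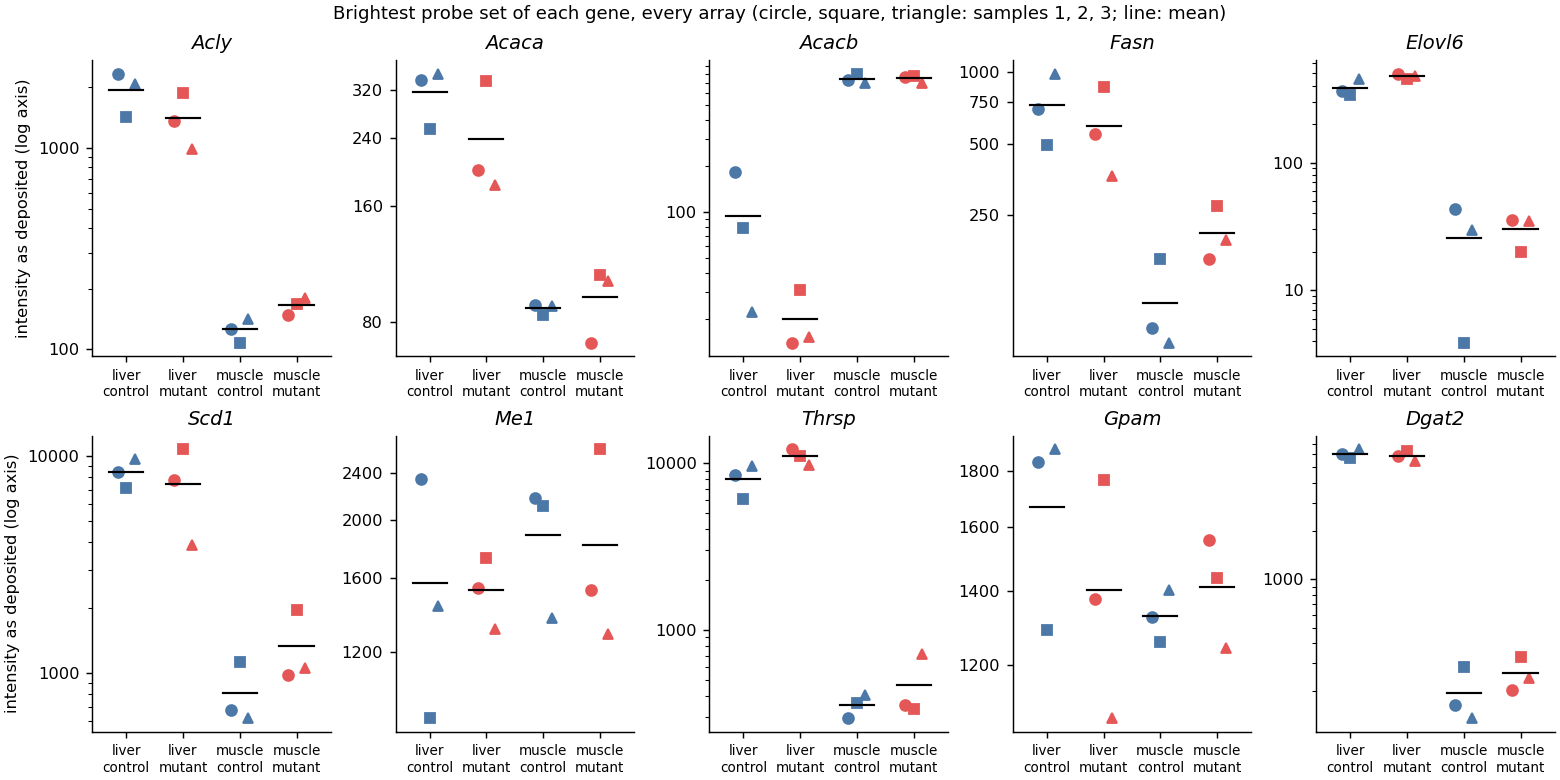
Intensity as deposited (arbitrary units, log axis, own range in each panel) of the brightest probe set of each gene in the 4 groups, with blue for control, red for mutant, 1 symbol per array and a line at the mean of 3 arrays. Dgat2, Thrsp, Acly, Scd1, Fasn, Elovl6 and Acaca sit higher in liver and Acacb higher in muscle, while mutant and control points of most genes intermix.

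Dgat2, the last step of triglyceride assembly, had the largest difference. It read 6024, 5723 and 6480 in the 3 control livers and 165, 284 and 136 in the 3 control muscles, 18.7-fold higher in liver after normalisation (log2 difference 4.22, SE 0.23, adjusted p = 3.96e-08). Thrsp read 8447, 6130 and 9657 in liver against 295, 363 and 406 in muscle (13.0-fold, adjusted p = 5.34e-09). No liver array of either gene came near a muscle array. Acly was 8.50-fold, Elovl6 7.49-fold, Scd1 6.20-fold, Fasn 4.01-fold and Acaca 2.17-fold higher in liver, each again without overlap. Elovl6 in muscle read 43.7, 3.9 and 29.6, around the offset of 16 that was added before taking logs, so its fold is understated. Some dim probe sets of these genes did not pass. The second of Acaca gave 0.54 (SE 0.26, adjusted p = 0.106 over all probe sets). A dim one gave 0.67 for Thrsp, -0.08 for Acly and -0.09 for Elovl6. The other tested probe sets of these genes were higher in liver and passed.

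The 2 acetyl-CoA carboxylases were split between the tissues. Acacb, the form tied to control of fatty acid oxidation, read 734, 807 and 697 in control muscle and 184, 78.4 and 22.3 in control liver, 12.5-fold higher in muscle (log2 difference -3.64 for liver minus muscle, SE 0.46, adjusted p = 4.22e-05). Its liver values were spread widely among the controls, whereas those of muscle lay close together. Its other probe set, dim in both tissues (1.4 to 34.4 in controls), did not pass (0.59, SE 0.35, adjusted p = 0.185 over all probe sets). Acaca, the cytosolic form that feeds Fasn, read 339, 254 and 353 in liver and 88.6, 83.5 and 87.9 in muscle.

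Me1 and Gpam were less clear. Me1 read 2345, 927 and 1433 in control liver and 2178, 2110 and 1368 in control muscle, which overlap, and its difference of -1.12 (SE 0.28, adjusted p = 0.00546) shrank to -0.33 (adjusted p = 0.286) on the values as deposited. Gpam was 1.41-fold higher in muscle (-0.50, SE 0.12, adjusted p = 0.00520), but 0.31 higher in liver as deposited (adjusted p = 0.131) and -0.12 after median centring (adjusted p = 0.432). Its second probe set was higher in liver (0.61, SE 0.16, adjusted p = 0.00764). No direction between tissues can be given for Gpam. The scaling matters because liver arrays had medians of 27.2 to 40.1 and muscle arrays 20.1 to 22.3, so that on the deposited scale the median of all genes was 0.49 higher in liver.

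In mutant liver none of the 10 genes passed the test against control liver, although 8 had lower means, of which Me1 turned above 0 on the deposited (0.05) and median-centred (0.04) values. The count was 0 of 10 in limma, with 5 of 10 at an unadjusted p under 0.05 (Acacb, Acly, Thrsp, Gpam and Dgat2). Over the whole array 3.35% of 13327 genes were called, and 19.6% had an unadjusted p under 0.05. Mutant and control arrays did not overlap in 3 of the 10 after normalisation (Dgat2 lower, Elovl6 and Thrsp higher), against 24.0% of all genes. The median difference of the 10 was -0.38 on the log2 scale (from -0.60 without mutant 2 to -0.19 without mutant 3), and that of all genes 0.01.

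Acly, which opens the pathway, read 2343, 1424 and 2070 in the controls and 1363, 1883 and 989 in the mutants. Mutant 2 lay within the control range and mutants 1 and 3 below it. The log2 difference was -0.63 (SE 0.23, 95% interval -1.13 to -0.13, adjusted p = 0.157).

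Acaca showed the same order, with 339, 254 and 353 in controls and 198, 336 and 181 in mutants (-0.40, SE 0.20, adjusted p = 0.315). Acacb had the largest difference of the 10 and the widest error. Its controls read 184, 78.4 and 22.3 and its mutants 14.0, 31.1 and 15.3, so control 3 lay below mutant 2 (-1.38, SE 0.52, 95% interval -2.54 to -0.23, adjusted p = 0.176). Mutants 1 and 3 lay under the offset of 16, where differences are damped.

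Fasn, the synthase itself, read 702, 493 and 989 in controls and 549, 865 and 366 in mutants. As deposited, mutant 3 lay below every control and mutants 1 and 2 within their range. On the normalised log2 scale mutant 1, at 9.13, also lay below the lowest control, at 9.19. The difference of Fasn was -0.37 (SE 0.26, 95% interval -0.94 to 0.19, adjusted p = 0.472). Me1 gave -0.10 (adjusted p = 0.886), with 2345, 927 and 1433 in controls and 1536, 1723 and 1310 in mutants.

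The 2 enzymes that modify palmitate differed from one another. Elovl6 read 366, 337 and 451 in controls and 498, 454 and 478 in mutants, with every mutant above every control, by a narrow margin at control 3. The difference was 0.28 (SE 0.14, 95% interval -0.03 to 0.59, adjusted p = 0.307). Scd1, a well-known target of SREBP-1c, read 8442, 7102 and 9709 in controls and 7728, 10747 and 3892 in mutants. The highest and the lowest of these 6 arrays were both mutants, and the difference was -0.51 (SE 0.28, adjusted p = 0.349).

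Thrsp, like Elovl6, had a higher mean in mutant liver. It read 8447, 6130 and 9657 in controls and 12132, 11096 and 9791 in mutants, all mutants above all controls. The margin between mutant 3 and control 3 was narrow, at 13.23 against 13.22 on the normalised log2 scale. The log2 difference was 0.29 (SE 0.11, adjusted p = 0.196, 95% interval 0.04 to 0.54). It was 0.47 on the values as deposited, over 1.5 times larger, and -0.10 with the mean of its 3 probe sets.

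For triglyceride assembly, Gpam read 1836, 1291 and 1884 in control liver and 1377, 1765 and 1074 in mutant liver (-0.41, SE 0.18, adjusted p = 0.248). Dgat2 had the smallest adjusted p of the 10, at 0.0943, with a difference of -0.31 (SE 0.09, 95% interval -0.52 to -0.11). On the normalised scale its mutants lay below its controls, but as deposited they read 5896, 6266 and 5432 against 6024, 5723 and 6480 and overlapped. The difference was -0.05 on the deposited values and -0.06 with median centring, over 1.5 times smaller in both.

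**Figure D2:**
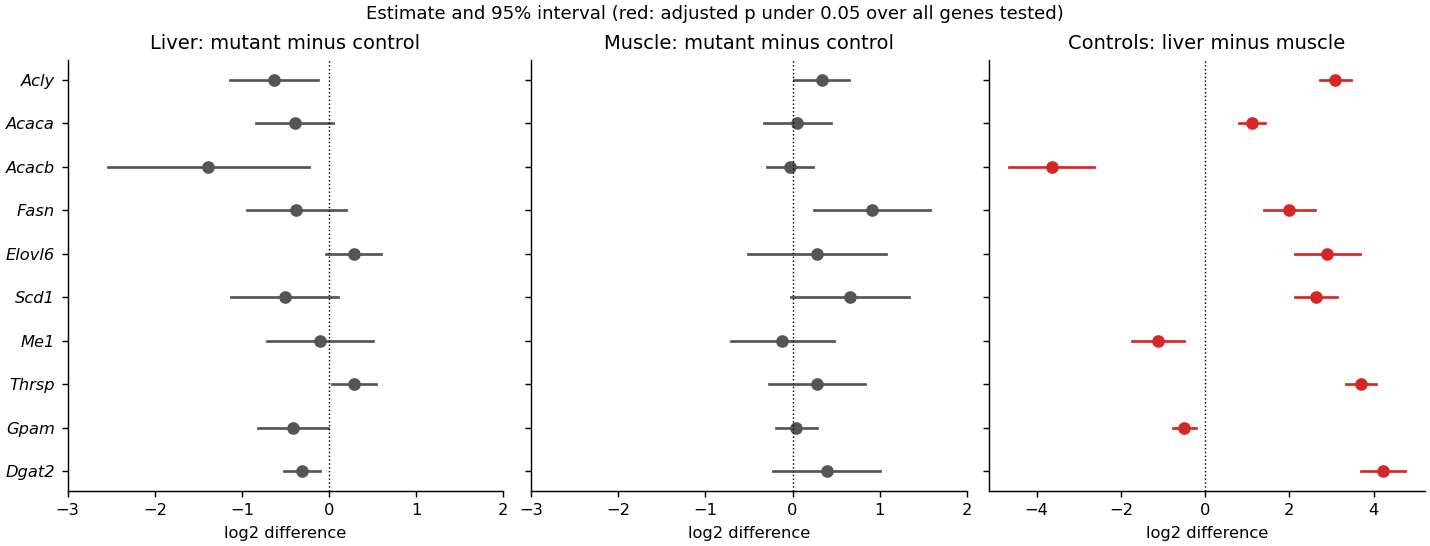
Log2 difference (horizontal axis) of each gene, with its 95% interval, for mutant minus control in liver, mutant minus control in muscle, and liver minus muscle in controls, where red marks an adjusted p under 0.05. No gene is red in either mutant comparison, where 8 of 10 liver estimates lie below 0 and 8 of 10 muscle estimates above it, and all 10 are red between the tissues.

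The liver values were lower chiefly in mutants 1 and 3. The median of the 10 genes relative to the control mean was -0.42 in mutant 1 and -0.69 in mutant 3, but 0.06 in mutant 2, which lay within the control range of -0.17 to 0.14. On the normalised scale mutants 1 and 3 were the 2 lowest of the 6 liver arrays for 7 of the 10 genes: Acly, Acaca, Acacb, Fasn, Scd1, Gpam and Dgat2. Mutant 2 also lay below every control for Dgat2, and for Acacb 1.03 below the control mean, above control 3. The same 2 arrays were lowest for 12 of the 24 tested probe sets of these genes (50%) and for 15.1% of all 27022 probe sets tested. The same pair of arrays had the high ratios of 3′ over 5′ signal.

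With that ratio as a covariate, differences turned to 0.36 for Fasn, 0.06 for Acaca, 0.27 for Scd1, 0.16 for Me1 and 0.01 for Gpam. The median of the 10 became 0.10. The other genes kept their sign: Acacb -1.43 (SE 0.83), Acly -0.10, Dgat2 -0.16, Elovl6 0.13 and Thrsp 0.42. None passed in limma, and the smallest adjusted p was 0.626, for Thrsp. The ratio was high only in mutants 1 and 3, so it largely went with genotype, which the fit cannot fully separate from it. With mutants 1 and 3 left out, the genes that turned, except Gpam, were again above 0 (Fasn 0.17, Acaca 0.02, Scd1 0.17, Me1 0.09). The median was then 0.06. Acacb (-1.04), Acly (-0.17), Dgat2 (-0.16) and Gpam (-0.05) stayed below 0 with mutant 2 alone. In the opposite direction, without mutant 2, Acly (-0.86, adjusted p = 0.0436), Scd1 (-0.86, adjusted p = 0.0468) and Dgat2 (-0.39, adjusted p = 0.0432) passed in limma, 3 of the 10. That fit called 738 of 13321 genes, against 447 of 13327 with all liver arrays. Its only mutants were the arrays with the high ratios. How far RNA quality accounts for the liver differences was not tested beyond these values.

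Probe sets of 1 gene gave unequal differences in liver. For Dgat2 the second probe set read 3231, 2644 and 3711 in controls and 1332, 2714 and 1383 in mutants, a difference of -1.07 (SE 0.24, adjusted p = 0.0505 over all probe sets) against -0.31 for the brightest. For Gpam the second probe set read 552, 345 and 612 in controls and 90.1, 406 and 81.0 in mutants (-1.65, SE 0.44, adjusted p = 0.0825), against -0.41. For Scd1 the second read 878, 496 and 2529 in controls and 186, 1110 and 120 in mutants (-1.81, SE 0.67, adjusted p = 0.192), against -0.51. On each of these second probe sets mutants 1 and 3 gave the lowest signals by far, while mutant 2 lay nearer the controls. On the brightest probe sets as deposited, mutant 1 lay above control 2 for each of these genes.

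**Figure D3:**
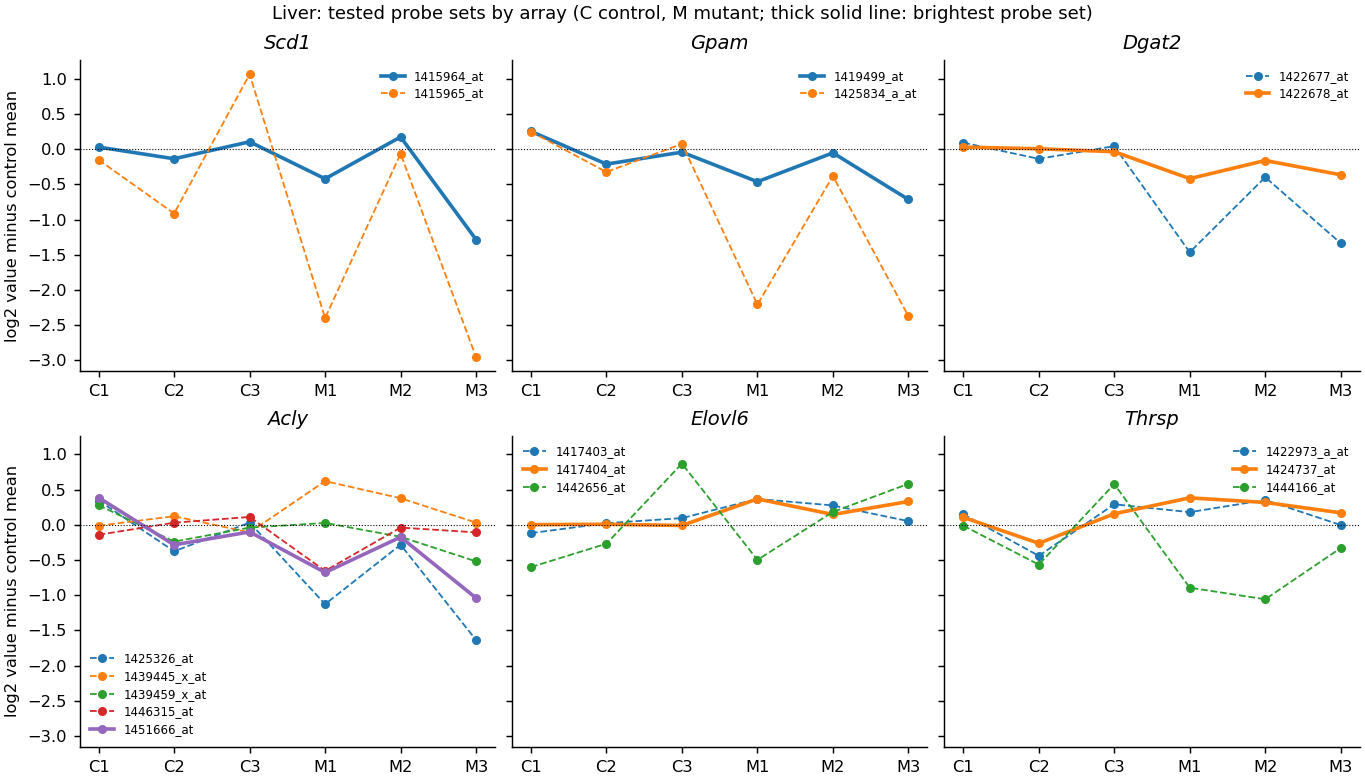
Log2 value minus the control mean (vertical axis) on each liver array (C control, M mutant) for the tested probe sets of 6 genes, with 1 line per probe set and a thick solid line for the brightest. The second probe sets of Scd1, Gpam and Dgat2 lie at -2.40, -2.21 and -1.46 in mutant 1 and at -2.96, -2.37 and -1.34 in mutant 3, and at -0.06, -0.38 and -0.40 in mutant 2.

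The probe sets of Acly and of Acacb disagreed in sign. Over the 5 tested for Acly the differences were -1.02, -0.63, -0.27, -0.22 and 0.34, and none passed. The fourth of these, which read 1122, 772 and 1143 in controls and 1131, 990 and 727 in mutants, placed mutant 1 beside the controls, where the brightest placed it below them. The second probe set of Acacb, dim in liver, read 28.8, 34.4 and 7.4 in controls and 41.8, 25.7 and 30.0 in mutants (0.32, SE 0.38, adjusted p = 0.727 over all probe sets), against -1.38 for the brightest. Thrsp gave 0.29 and 0.18 for its 2 bright probe sets, and -0.76 for a dim one that read 12.4 to 83.4. The 3 probe sets of Elovl6 gave 0.28, 0.23 and 0.09. The place of each probe set along its transcript was not used here.

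In mutant muscle the estimates leaned the other way, but again 0 of 10 genes passed in limma, with 2 of 10 at an unadjusted p under 0.05 (Fasn and Acly). Over the whole array 0.0152% of 13131 genes were called, that is 2 genes, and 4.26% had an unadjusted p under 0.05. The means were higher in 8 of 10 genes, with a median difference of 0.28 against -0.00 for all genes. That median was 0.17 without mutant 3 and 0.06 with the mean of probe sets. The groups did not overlap for 1 of 10, Acly, against 9.53% of all genes.

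Fasn had the largest difference in muscle. It read 83.0, 163 and 72.1 in controls and 163, 273 and 196 in mutants, with control 2 level with mutant 1 and the other controls below all mutants. The difference was 0.91 (SE 0.30, 95% interval 0.25 to 1.57, adjusted p = 0.994). Scd1 read 675, 1126 and 620 in controls and 984, 1950 and 1060 in mutants, where control 2 exceeded mutants 1 and 3 (0.66, SE 0.30, 95% interval -0.01 to 1.33, adjusted p = 0.994). Acly read 126, 108 and 142 against 148, 168 and 180, every mutant above every control (0.34, SE 0.14, 95% interval 0.02 to 0.65, adjusted p = 0.994). The mean of its probe sets gave -0.04, because they disagreed in sign. Its other tested probe sets gave 0.35, -0.32 and -0.61, and none passed. That at -0.32 read 54.2, 39.0 and 39.3 in controls and 28.2, 36.1 and 30.0 in mutants, every mutant below every control.

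Dgat2 read 165, 284 and 136 in control muscle and 204, 329 and 242 in mutant muscle, with control 2 above mutants 1 and 3 (0.39, SE 0.28, adjusted p = 0.994). Thrsp read 295, 363 and 406 against 352, 337 and 720, and only mutant 3 lay above the controls (0.28, SE 0.25). Acacb, which is bright in muscle, read 734, 807 and 697 against 769, 779 and 704. Its difference of -0.03 had a 95% interval of -0.29 to 0.24, and it turned to 0.01 on the deposited values and 0.02 with median centring. Gpam gave 0.04 (interval -0.19 to 0.28), Acaca 0.06 (interval -0.33 to 0.44), Me1 -0.12 (interval -0.71 to 0.48) and Elovl6, dim in muscle, 0.28 (interval -0.52 to 1.07).

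Fat cells carry much Fasn, Scd1 and Dgat2, and markers of them were present in the muscle samples. Of 12 adipocyte markers 10 were matched and 9 tested in muscle, where 8 had higher means in mutants and none passed (0.0152% of all genes were called). Adiponectin (Adipoq), a hormone made by fat cells, read 228, 463 and 260 in controls and 307, 489 and 519 in mutants (0.45, adjusted p = 0.994). The fat droplet protein Cidec read 23.4, 80.3 and 24.4 against 39.8, 73.5 and 79.3. In both, control 2 was the highest control and mutant 1 the lowest mutant. This order held for 6 of the 10 matched markers (also Retn, Fabp4, Lipe and Lpl, but not Lep, Adig, Pparg or Car3) and for 3 of the 10 synthesis genes (Fasn, Scd1 and Dgat2). It was noticed after the values were seen. Its share over all genes was not counted, so these counts only describe the genes named.

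The summed intensity of the 10 matched markers was 6894 to 11660 in control muscle and 11913 to 13874 in mutant muscle. Most of it was Car3, a carbonic anhydrase that liver and muscle also express, and without Car3 the sums overlapped, at 4125 to 5601 and 4420 to 6369. No marker was listed at 0 throughout a group, and leptin (Lep) was dim, at 7.6 to 31.1 over the 6 muscle arrays. In liver the sums without Car3 were 478 to 659. The part of fat cell RNA in the muscle values was not tested.

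**Figure D4:**
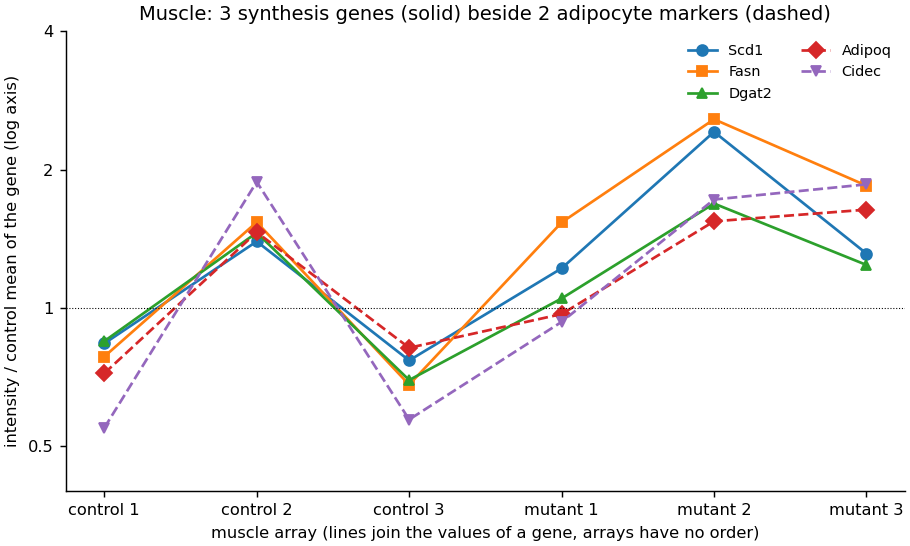
Intensity of each gene on each muscle array divided by the mean of its 3 control arrays (log axis), with solid lines for Scd1, Fasn and Dgat2 and dashed lines for the adipocyte markers Adipoq and Cidec, picked from the 10 matched markers. In the 5 genes drawn control 2 is the highest control and mutant 1 the lowest mutant. This order was found in only 6 of the 10 markers and 3 of the 10 synthesis genes. Lines only join the values of a gene.

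The effect of the mutation was set against itself between the tissues by the interaction term, which uses the same arrays as both comparisons. The liver difference minus the muscle difference passed for 0 of 10 genes in limma, with 5 of 10 at an unadjusted p under 0.05 (Fasn, Acacb, Acly, Scd1 and Dgat2), where 1.42% of 11842 genes were called and 15.5% had an unadjusted p under 0.05. Acly came closest at -0.97 (SE 0.29, 95% interval -1.58 to -0.36, adjusted p = 0.114). Fasn gave -1.28 (SE 0.44, adjusted p = 0.165), Acacb -1.36 (SE 0.59, adjusted p = 0.280), Scd1 -1.17 (SE 0.47, adjusted p = 0.241) and Dgat2 -0.70 (SE 0.32, adjusted p = 0.311). The median of the 10 was -0.58, and that of all genes 0.03.

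These values depended on single arrays, on probe sets and on the 3′ over 5′ ratio. Without liver control 3 Acacb passed in limma at -2.03 (adjusted p = 0.0245), where 72 of 11844 genes were called. Without liver mutant 2 Acly passed at -1.20 (adjusted p = 0.0249), where 391 of 11824 genes were called. With every probe set tested on its own, the second probe set of Dgat2 passed at -1.37 (SE 0.30, adjusted p = 0.0475). In that fit 187 of 23095 probe sets were called. Elovl6 (0.00), Thrsp (0.01) and Me1 (0.01) had differences near 0 with wide intervals, the widest being that of Me1, -0.91 to 0.94. Adjusted for the 3′ over 5′ ratio, Fasn was -0.46, Scd1 -0.26, Acaca -0.004 and Gpam -0.009, and the median of the 10 was -0.25. The smallest adjusted p among the 10 was then 0.702.

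Other genes of the pathway were taken from lists of 25 further fatty acid synthesis genes, 27 further triglyceride and lipid droplet genes and 17 regulators that matched the arrays. Of the 25 synthesis genes tested in liver, 0 were higher and 2 lower in mutants, with a median of -0.21, beside 3.35% called and a median of 0.01 over all genes. Those 2 were Tecr, which completes each round of elongation of long fatty acids, at -0.81 (SE 0.16, adjusted p = 0.0268), and Mdh1, the cytosolic malate dehydrogenase that feeds malic enzyme, at -0.51 (SE 0.11, adjusted p = 0.0354). Tecr read 4540, 4335 and 5219 in controls and 2950, 4186 and 2563 in mutants, so mutants 1 and 3 were again the lowest. Mdh1 read 4582, 4234 and 5042 against 3561, 3886 and 4221, all mutants below all controls. Elovl1 (-0.58, adjusted p = 0.128) and the citrate carrier Slc25a1 (-0.33, adjusted p = 0.132), which supplies Acly with citrate, did not pass.

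Of the 22 triglyceride and lipid droplet genes tested in liver, 0 passed, with a median of -0.24 and several close to the threshold. Over all genes 3.35% were called and the median was 0.01. Pnpla2, the lipase that opens triglyceride breakdown, gave -0.65 (adjusted p = 0.050005, just above the threshold), Lpin2, a phosphatidate phosphatase on the path to Dgat2, -0.51 (adjusted p = 0.0555), and Cideb -0.43 (adjusted p = 0.0885). Pnpla3, a lipid droplet protein induced by SREBP-1c, lay in the other direction. It read 61.1, 40.8 and 48.8 in controls and 92.2, 93.6 and 83.9 in mutants (0.70, SE 0.19, adjusted p = 0.0769), with the 3 mutants close together and above every control.

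Among the 17 regulators 1 was lower and 0 higher in mutant liver, with a median of -0.13 (3.35% called and 0.01 over all genes). Scap, the escort protein that carries SREBP to the Golgi for activation, read 1115, 1016 and 1353 in controls and 661, 820 and 703 in mutants (-0.77, SE 0.13, adjusted p = 0.0183). Every mutant, including mutant 2, lay below every control. Prkaa2, a catalytic subunit of the energy sensor AMPK (-0.72, adjusted p = 0.0557), and Foxo1, a transcription factor that insulin restrains (-0.64, adjusted p = 0.0582), did not pass, nor did the liver X receptor Nr1h3 (0.47, adjusted p = 0.130). The calls of Tecr, Mdh1 and Scap held without liver mutant 2 and were lost on leaving out any other liver array (adjusted p from 0.0579 to 0.156). Without control 2 or mutant 1 limma called 0 genes on the whole array, with 2284 and 1759 at an unadjusted p under 0.05, so every liver call given here rests on those arrays. As deposited, Tecr (-0.56), Mdh1 (-0.25) and Scap (-0.66) did not pass either, and with the mean of probe sets Mdh1 turned to 0.05 and Scap was -0.39 (adjusted p = 0.235). With the 3′ over 5′ ratio as a term, Tecr was -0.37 (adjusted p = 0.658), Mdh1 -0.47 (adjusted p = 0.529) and Scap -0.62 (adjusted p = 0.440). Srebf1 and Mlxipl were named for their roles. Srebf1, the gene of SREBP-1, read 1097, 810 and 2619 in controls and 1003, 1501 and 750 in mutants (-0.47, SE 0.32, adjusted p = 0.468), and Mlxipl, the gene of ChREBP, gave -0.20 (SE 0.26, adjusted p = 0.736).

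Markers of macrophages differed in the same liver samples. Of 8 tested, 2 were higher in mutants (3.35% of all genes were called), Tyrobp at 1.34 and Lyz2 at 1.28, and the summed intensity of the 8 was 1859 to 2013 in controls and 2640 to 3270 in mutants. Of 7 hepatocyte markers 0 passed. The part of cell composition in the liver values of the synthesis genes was not tested.

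In muscle 0 genes of the 3 lists passed in limma, beside 0.0152% called over all genes. The medians were 0.02 for 24 synthesis genes, 0.01 for 23 triglyceride and droplet genes and 0.03 for 16 regulators, against -0.00 for all genes. Mdh1 had the smallest adjusted p of the listed genes. It read 2544, 2494 and 2558 in controls and 2068, 1873 and 2037 in mutants (-0.37, SE 0.08, adjusted p = 0.979). On this probe set the direction was the same as in liver, with no overlap. With the mean of its probe sets Mdh1 was -0.14 in muscle and 0.05 in liver, so the direction was then not shared. Pnpla2 gave -0.42, Idh1, which also makes NADPH, 0.41, and Agpat2, which acts after Gpam, 0.51 (adjusted p = 0.994 for each). Srebf1 gave 0.07 and Mlxipl 0.01 in muscle. Between the control tissues, 17 of 25 synthesis genes were higher in liver and 2 in muscle, 11 and 8 of 24 triglyceride and droplet genes, and 9 and 4 of 17 regulators, against 26.3% and 28.4% of all genes.

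The members did not vary as 1 block over the arrays. In liver the correlation with the mean profile of the 10, over 6 arrays that include both genotypes, was highest for Gpam (0.98) and Acly (0.97) and lowest for Thrsp (0.01) and Elovl6 (-0.70), and the median over 45 pairs of members was 0.55. In muscle it was highest for Scd1 (0.98), Fasn (0.93) and Dgat2 (0.90) and lowest for Elovl6 (-0.40), with a median over pairs of 0.33. Each member enters the mean it was compared with. The other genes closest to the liver profile were Atn1, Stat5b, Shroom3, Pgap1 and Klf12 (0.98 for each), and in muscle Brap, Slc4a1ap, Tjp1, Usp46 and Rp2 (0.98 to 0.99). These are descriptions over 6 arrays, which share the scaling of each array and, in liver, the raised 3′ over 5′ signal of mutants 1 and 3.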

How the data were processed

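Total RNA from liver and quadriceps muscle was measured on 12 Affymetrix arrays, 3 per group. The authors deposited 1 linear intensity per probe set and array. The sources used here do not state how probes were summarised and arrays scaled; d-Chip is named only for the clustering, per the labels. Precision is set by the number of arrays. Of the 45101 rows 64 were control probe sets and left out. A single symbol was listed for 34945 of the 45037 analysed, several for 932 and none for 9160, with symbols checked through Entrez identifiers for 34741 using GRCm38.p6 gene tables.

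Values were taken as log2(intensity + 16), an offset that understates changes of dim genes, and quantile normalised within tissue, or over the 6 controls together for the comparison of tissues. Genes whose mean was above the 40th percentile of probe sets were tested in R 4.3.3 with limma 3.58.1 (lmFit and eBayes with a variance trend), and p-values were adjusted by the Benjamini-Hochberg method over all genes tested, with a threshold of 0.05. Mutant was compared with control in each tissue, the difference between tissues was the interaction term over all 12 arrays, and control liver was compared with control muscle. Fits were tested on simulated data. Python 3.11.15 with matplotlib 3.10.9 drew the figures.

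The 10 genes and all lists (119 names, 112 matched) were chosen with earlier results of these data known. Text names the 10 genes, up to 4 tested members with the smallest p of each other list in each tissue, markers, and the 5 genes closest to the profile of the 10 in each tissue; Srebf1, Mlxipl and Ppargc1b were added for their roles. Pairs of liver arrays correlated at 0.941 to 0.959 and pairs of muscle arrays at 0.962 to 0.971, so none looked like a duplicate. Sample numbers were checked as possible pairs. Alternatives were other offsets, filters, scalings and probe set rules, no variance trend, a single fit to both tissues, the sample number as a block, leaving out each array, the mean log2 ratio of 3′ over 5′ control probe sets added as a term, and leaving out liver mutants 1 and 3.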

Additional observations from a re-analysis of the deposited data

How the results depend on the processing

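The counts of genes called among the 10 moved in these cases only, over the alternatives run. In liver the count ran from 0 to 3 when single arrays were left out (3 without mutant 2), and for the difference between tissues from 0 to 1; with every probe set on its own the latter was 1. In muscle it was 0 throughout, and between control tissues 8 to 10. Signs turned as follows. In liver, Me1 was 0.050 as deposited and 0.045 with median centring, and Thrsp -0.098 with the mean of probe sets. Adjusting for the 3′ to 5′ ratio, Fasn was 0.36, Acaca 0.061, Scd1 0.27, Me1 0.16 and Gpam 0.013, and without mutants 1 and 3 Fasn was 0.17, Acaca 0.025, Scd1 0.17 and Me1 0.087. In muscle, Acacb was 0.0099 as deposited, 0.023 with median centring and 0.0056 with the mean of probe sets, where Acly was -0.042, Elovl6 -0.029 and Thrsp -0.040. For the difference between tissues, Elovl6 was -0.39 and Thrsp -0.0013 with an offset of 1, Thrsp -0.058 with the mean of probe sets, Elovl6 -0.24 and Thrsp -0.013 with the covariate, and Elovl6 -0.14 without liver mutants 1 and 3. Gpam between control tissues was 0.31 as deposited and 0.056 with the mean of probe sets. The cause of these turns was not tested. With 1 array left out, the range crossed 0 for Me1 in liver (-0.36 to 0.28); in muscle for Acacb (-0.091 to 0.072), Elovl6 (-0.17 to 0.58), Me1 (-0.45 to 0.10), Gpam (-0.0079 to 0.15), Acaca (-0.069 to 0.23) and Thrsp (-0.036 to 0.46); and for the difference in Me1 (-0.25 to 0.40), Thrsp (-0.17 to 0.33) and Elovl6 (-0.30 to 0.45). The other results kept their sign. Over all genes, the 447 calls in liver became 222 without a filter, 297 as deposited, 171 with the mean of probe sets, 0 without a variance trend (2332 at an unadjusted p under 0.05) or without mutants 1 and 3 (1091), 2 with the covariate and 814 with all arrays in 1 fit, and 0 to 738 with 1 array left out. The 168 calls of the difference became 0 without a variance trend (1717 unadjusted), 1 with the covariate, 57 as deposited, 58 without a filter or with median centring, 85 with the mean of probe sets, and 12 to 391 with 1 array left out. Sample numbers showed no pairing in liver or between control tissues (correlation of same-numbered samples -0.11 to -0.01 and -0.02 to 0.01). In muscle it was 0.03 to 0.20, and numbers 1 and 3 each correlated best with their own number. These few correlations do not settle whether the muscle samples were paired. With the replicate block 750 muscle genes had an unadjusted p under 0.05 in limma, against 560 without it. With the replicate block 0 of the 10 genes were called in liver, 0 in muscle, 0 for the difference and 10 between control tissues, and over all genes 11, 2, 26 and 7855. Signal limits Elovl6 in muscle and Acacb in liver, which lay near the offset on several arrays, and 3 arrays a group limit every interval.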
